A study of Mus musculus with 72 samples.

Results

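Rbm3 and Cirbp encode the cold-inducible RNA-binding proteins RBM3 and CIRBP, and their messenger RNA was followed here in pancreatic islets of mice given regular chow (RC) or, in its place, a high-fat diet (HFD). Both were found by their symbols and make up 2 of the 14604 genes of the deposited table. They were chosen on these same data, because the mean of Rbm3 was higher under HFD than under RC in all 9 comparisons of 1 strain at 1 day, so every HFD minus RC difference of either gene below is a description with no test. Islets came from males aged 8 weeks of the inbred strains C57BL/6J (spelled C56BL/6J in the sample labels), DBA/2J and BALB/cJ, fed HFD or RC for 5, 13 or 33 days, with no genetic change named in the labels. Each library held RNA from 120 to 150 islets of 1 mouse, which had recovered overnight in culture medium before extraction. With 35 HFD and 34 RC libraries, 69 in all, each strain gave 6 groups, 1 for each diet and day. Most groups held 4 mice; there were 3 mice in DBA/2J on HFD at day 13, in the same strain on RC at day 33, and in C57BL/6J on RC at day 33. Levels are log2 CPM, the log2 of read counts scaled to a common library size, so a difference of 1 is a doubling. Library totals ran from 12292621 to 34591079 reads, and the median was 22756199. Ins1 and Ins2, the insulin genes and markers of the beta cells that islets are rich in, took 11.5% to 23.3% of the values of a library.

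RBM3 and CIRBP are small proteins with 1 RNA recognition motif followed by a glycine-rich tail. Their transcripts accumulate when cells are mildly cooled and fall when cells are warmed, the reverse of the heat shock chaperones. RBM3 is known for aiding translation and for protecting synapses in cooled mouse brain. CIRBP is known for binding stress-related transcripts and clock transcripts, including that of Clock, and for acting outside the cell as an inflammatory signal through TLR4. Both levels follow the daily cycle of body temperature in mouse tissues.

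The 2 genes are paralogs, so the sequences they share bear on how far reads can tell them apart. The shortest principal transcript of Rbm3 and the principal transcript of Cirbp in GENCODE mouse release 21 have coding regions of 465 and 519 bases. Over the first 255 coding bases, compared position by position without gaps, 183 were identical (71.8%). Coding bases 91 to 180, which lie inside the RNA recognition motif, are shown for both with the 27 differing bases in capitals.
Rbm3: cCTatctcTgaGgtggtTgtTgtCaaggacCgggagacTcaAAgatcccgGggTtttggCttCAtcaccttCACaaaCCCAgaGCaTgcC
Cirbp: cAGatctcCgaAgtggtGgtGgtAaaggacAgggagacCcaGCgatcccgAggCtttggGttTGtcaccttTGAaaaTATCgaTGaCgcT
The longest run of bases shared by any of the 11 annotated Rbm3 transcripts and any of the 7 Cirbp transcripts was 11 bases, against reads of 125 bases. Rbm3 also has an annotated processed pseudogene, Rbm3-ps on chromosome 1, and an antisense gene, Rbm3os, that overlaps it on the other strand. Neither was in the table, and whether the authors' counting used strand is not given in the sources used here, so reads of these could be part of the Rbm3 values.

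The RefSeq promoter table (GRCm38.p6) holds 2 windows for Cirbp. The first, chr10:80167589-80167888 on the plus strand, runs from 250 bases before to 50 bases after an annotated start. It is shown because one letter string that is known as a mild cold responsive element of Cirbp (TCCCCGCC) was searched for in it, together with the Sp1 GC box (GGGCGG), the E-box (CACGTG), a heat shock half-site pair (GAANNTTC) and the CRE (TGACGTCA). Both strands were read, the strings did not overlap in this window, and matches are in capitals.
Cirbp window 1: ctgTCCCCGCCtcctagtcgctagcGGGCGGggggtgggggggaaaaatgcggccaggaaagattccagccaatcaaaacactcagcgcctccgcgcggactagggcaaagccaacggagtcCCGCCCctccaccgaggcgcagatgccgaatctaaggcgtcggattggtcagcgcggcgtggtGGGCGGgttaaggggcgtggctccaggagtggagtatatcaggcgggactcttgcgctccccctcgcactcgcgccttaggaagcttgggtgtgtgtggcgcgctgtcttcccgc
This window held 1 match to the cold responsive element and 3 to the GC box. The second window, chr10:80167921-80168220, held 4 GC boxes and no cold responsive element. Of all 32851 windows of the same length, 5.38% held the cold responsive string, 35.66% the GC box, 7.15% the E-box, 7.86% the half-site pair and 1.79% the CRE. The last 3 strings were in neither Cirbp window.

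Rbm3 (ENSMUSG00000031167.16) lies at chrX:8138975-8145880 on the minus strand and Cirbp (ENSMUSG00000045193.13) at chr10:80165985-80172786 on the plus strand (GRCm38). Between 500 and 3255 reads per library fell in Rbm3 and between 812 and 4290 in Cirbp. By mean level Rbm3 ranked 3392 and Cirbp 2314 among the 14604 genes. Per kilobase of annotated exon, the level of Cirbp was 1.65 to 5.58 times that of Rbm3, with a median of 2.47, and was the higher in all 69 libraries. The order depends on the transcript length used. With that Cirbp transcript (1321 bases) and the longest principal Rbm3 transcript (2792 bases) the median ratio was 2.90, and with the shortest (1152 bases) it was 1.19, with Cirbp the higher in 56 of 69 libraries.

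Rbm3 was lowest in chow-fed C57BL/6J mice early in the study and reached similar levels in most other groups. Whole islets were measured, so fewer cells of a type and less RNA per cell cannot be told apart in these levels. The 18 group means of Rbm3 ran from 6.31 log2 CPM in BALB/cJ HFD day 5 to 4.61 log2 CPM in C57BL/6J RC day 5. Below BALB/cJ HFD day 5 came, in falling order, C57BL/6J HFD day 13 (6.24), BALB/cJ HFD day 33 (6.17), DBA/2J HFD day 33 (6.14), the day 5 HFD group of DBA/2J (6.10) and its RC group of that day (6.05). BALB/cJ HFD day 13 (6.02), DBA/2J HFD day 13 (5.95), C57BL/6J HFD day 5 (5.94), DBA/2J RC day 13 (5.91), C57BL/6J HFD day 33 (5.91) and C57BL/6J RC day 33 (5.87) followed. The remaining means were 5.74 in BALB/cJ RC day 13, 5.68 in BALB/cJ RC day 33, 5.58 in BALB/cJ RC day 5, 5.28 in DBA/2J RC day 33 and 4.95 in C57BL/6J RC day 13. The gap between neighbours in this order was larger than the greater SD of the pair at 2 places, between C57BL/6J RC day 33 and BALB/cJ RC day 13, and between C57BL/6J RC day 13 and C57BL/6J RC day 5.

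Cirbp covered a narrower range of group means, from 6.71 log2 CPM in DBA/2J HFD day 5 to 5.78 log2 CPM in DBA/2J RC day 33. C57BL/6J HFD day 13 (6.64), C57BL/6J HFD day 33 (6.64), C57BL/6J RC day 33 (6.60) and DBA/2J RC day 5 (6.55) stood near the top. BALB/cJ RC day 5 (5.97), C57BL/6J RC day 5 (5.95) and BALB/cJ RC day 13 (5.95) stood just above the lowest group. The other 9 group means lay between 6.49 in BALB/cJ HFD day 5 and 6.04 in DBA/2J HFD day 13. No gap between neighbours exceeded the greater SD of the pair. After the group means were removed, the SD between mice as estimated by limma was 0.354 log2 units for Rbm3 and 0.342 for Cirbp. That estimate is drawn towards the SD of genes of similar level.

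In C57BL/6J islets the diets stood furthest apart at days 5 and 13 and were level at day 33. At day 5, Rbm3 was 5.92, 5.69, 6.06 and 6.11 log2 CPM in HFD mice and 4.37, 4.62, 4.92 and 4.53 log2 CPM in RC mice. Every HFD library stood above every RC library, which in that direction was so for 4.87% of all genes, and the means differed by 1.33 ± 0.25 (SE). At day 13, Rbm3 was 5.87, 5.67, 6.57 and 6.86 in HFD mice and 5.39, 4.64, 4.81 and 4.94 in RC mice. These groups too did not overlap (4.50% of all genes), and the difference was 1.30 ± 0.25. At day 33, Rbm3 was 5.82, 6.02, 5.59 and 6.20 in HFD mice and 5.80, 5.88 and 5.93 in RC mice, so the RC libraries lay inside the HFD range and the difference was 0.036 ± 0.271.

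Cirbp in C57BL/6J also stood further apart between the diets at days 5 and 13 than at day 33, with smaller differences than Rbm3. At day 5 it was 6.53, 6.29, 6.37 and 6.42 in HFD mice and 6.00, 6.03, 6.15 and 5.64 in RC mice. These groups did not overlap (4.87% of all genes), and the difference was 0.45 ± 0.24. At day 13 it was 6.35, 6.44, 6.81 and 6.97 in HFD mice and 6.41, 5.68, 6.29 and 6.34 in RC mice. There, 3 of 4 HFD libraries stood above all RC libraries, and the difference was 0.46 ± 0.24, or 0.30 without the lowest RC library (replicate 2). At day 33 it was 6.28, 6.82, 6.55 and 6.90 in HFD mice and 6.46, 6.64 and 6.70 in RC mice, a difference of 0.035 ± 0.261.

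In DBA/2J islets the diets were level at days 5 and 13 and apart at day 33. Rbm3 at day 5 was 5.91, 6.20, 6.25 and 6.04 in HFD mice and 6.00, 5.77, 6.33 and 6.12 in RC mice. At day 13 it was 5.99, 6.14 and 5.72 in HFD mice and 5.63, 6.06, 6.02 and 5.95 in RC mice. The groups overlapped at both days, with differences of 0.043 ± 0.251 and 0.038 ± 0.271. At day 33 Rbm3 was 5.99, 6.14, 6.08 and 6.33 in HFD mice and 4.88, 5.35 and 5.60 in RC mice. Here the groups did not overlap (6.68% of all genes), and the difference was 0.86 ± 0.27. The HFD libraries of day 33 stood where those of days 5 and 13 did, and it was the RC libraries that stood lower.

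Cirbp in DBA/2J at day 5 was 6.78, 6.57, 6.92 and 6.59 in HFD mice and 6.23, 6.38, 6.94 and 6.65 in RC mice. At day 13 it was 5.86, 6.20 and 6.07 in HFD mice and 6.20, 6.20, 6.48 and 6.15 in RC mice. The differences were 0.16 ± 0.24 at day 5 and -0.21 ± 0.26 at day 13, and the groups overlapped at both. At day 33 it was 6.31, 6.36, 6.00 and 6.62 in HFD mice and 5.39, 5.87 and 6.08 in RC mice. There, 3 of 4 HFD libraries stood above all RC libraries, and the difference was 0.54 ± 0.26, or 0.34 without RC replicate 1. The day 13 difference was -0.12 without HFD replicate 1 and -0.14 without RC replicate 3.

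In BALB/cJ islets the HFD libraries fell into a high and a low pair at days 5 and 13. Rbm3 at day 5 was 6.90, 6.77, 5.73 and 5.82 in HFD mice and 5.77, 5.69, 5.51 and 5.34 in RC mice, a difference of 0.73 ± 0.25. At day 13 it was 6.58, 6.69, 5.52 and 5.30 in HFD mice and 5.86, 5.73, 5.79 and 5.59 in RC mice, a difference of 0.28 ± 0.25. At day 5 the low pair lay beside the highest RC library, and at day 13 it lay below every RC library. At day 33 Rbm3 was 6.11, 5.94, 6.24 and 6.39 in HFD mice and 5.95, 6.26, 5.88 and 4.60 in RC mice, a difference of 0.49 ± 0.25. One RC library of day 33 (replicate 4) stood far below the other RC libraries, and without it the day 33 difference was 0.14. The day 13 difference was 0.095 and 0.059 without HFD replicate 1 or 2, and 0.45 and 0.52 without HFD replicate 3 or 4.

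Cirbp split the BALB/cJ libraries in the same way. At day 5 it was 6.97, 6.95, 6.03 and 6.03 in HFD mice and 6.33, 6.24, 5.79 and 5.51 in RC mice, a difference of 0.53 ± 0.24. At day 13 it was 6.78, 7.08, 5.59 and 5.48 in HFD mice and 6.34, 5.92, 6.06 and 5.50 in RC mice, a difference of 0.28 ± 0.24. At day 33 it was 6.31, 6.22, 6.87 and 6.50 in HFD mice and 6.40, 6.48, 6.26 and 5.49 in RC mice, a difference of 0.32 ± 0.24. Without RC replicate 4 of day 33, the same library that was low for Rbm3, that difference was 0.096, and without HFD replicate 3 it was 0.19. The day 13 difference was 0.099 and -0.001 without HFD replicate 1 or 2, 0.50 and 0.53 without HFD replicate 3 or 4, and 0.13 without RC replicate 4.

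**Figure D1:**
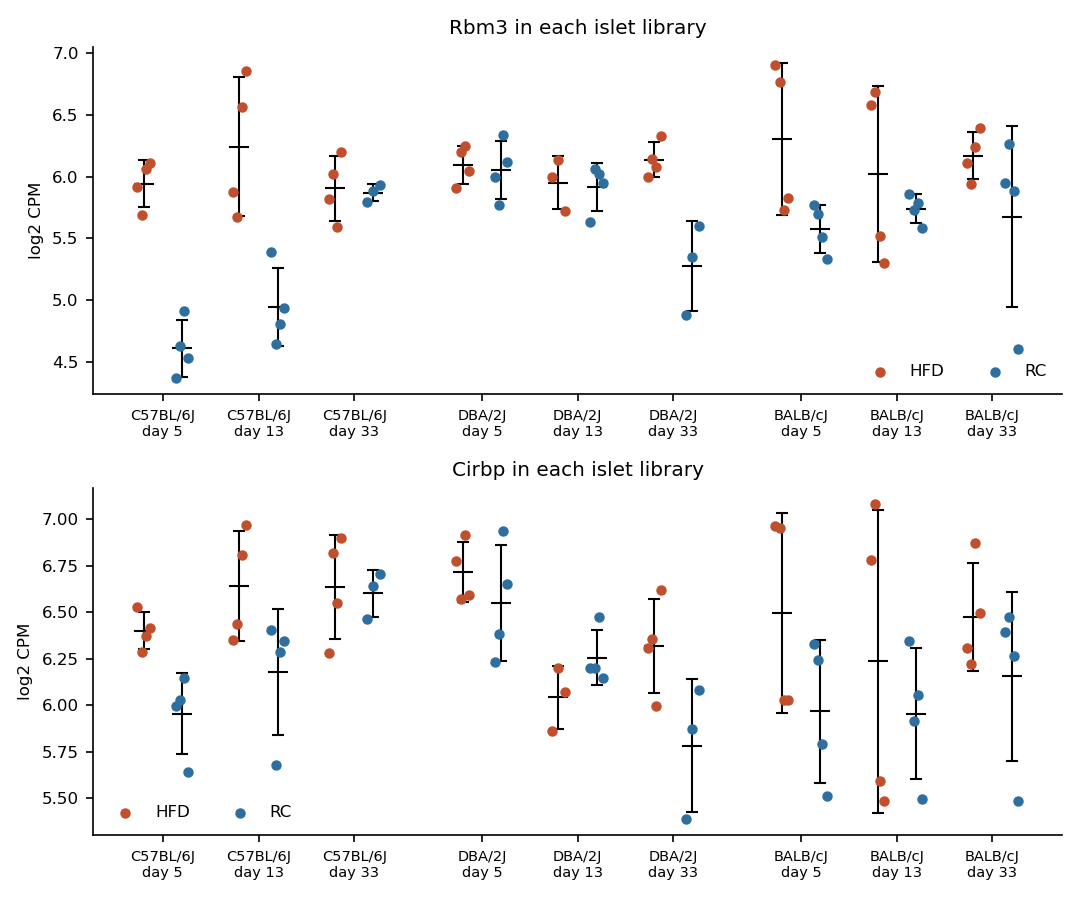
Level of Rbm3 (top) and Cirbp (bottom) in log2 CPM in each of the 69 islet libraries, by strain and day, with HFD libraries in red left of RC libraries in blue; horizontal bars are group means and whiskers are SD. C57BL/6J RC libraries of days 5 and 13 and DBA/2J RC libraries of day 33 are low for Rbm3, and BALB/cJ HFD libraries of days 5 and 13 form a high and a low pair for both genes.

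Averaged over the 9 comparisons, Rbm3 was 6.09 under HFD and 5.52 log2 CPM under RC, a difference of 0.57 ± 0.09 (1.48-fold). It was 0.89 ± 0.15 in C57BL/6J, 0.31 ± 0.15 in DBA/2J and 0.50 ± 0.15 in BALB/cJ. Cirbp was 6.44 under HFD and 6.16 under RC, a difference of 0.29 ± 0.08 (1.22-fold), with 0.32 ± 0.14, 0.16 ± 0.15 and 0.38 ± 0.14 in the same strains. With the number in the sample titles as a covariate, the averages were 0.46 for Rbm3 and 0.12 for Cirbp. Without day 33, DBA/2J had 0.040 for Rbm3. Both genes were among the 799 (5.47% of all genes) past an adjusted p of 0.05 in this average, from which nothing is read because the choice rests on it. The difference of Rbm3 was smaller in DBA/2J than in C57BL/6J by 0.58 ± 0.21, a value of the same contrast and hence untested. Rbm3 was higher under HFD in 9 of 9 comparisons, as was the case for 66 of 14604 genes (0.452%), and Cirbp in 8 of 9. The Rbm3 differences just inside that rule were 0.036, 0.038 and 0.043, and the Cirbp difference that falls outside it was -0.21, in DBA/2J at day 13.

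**Figure D2:**
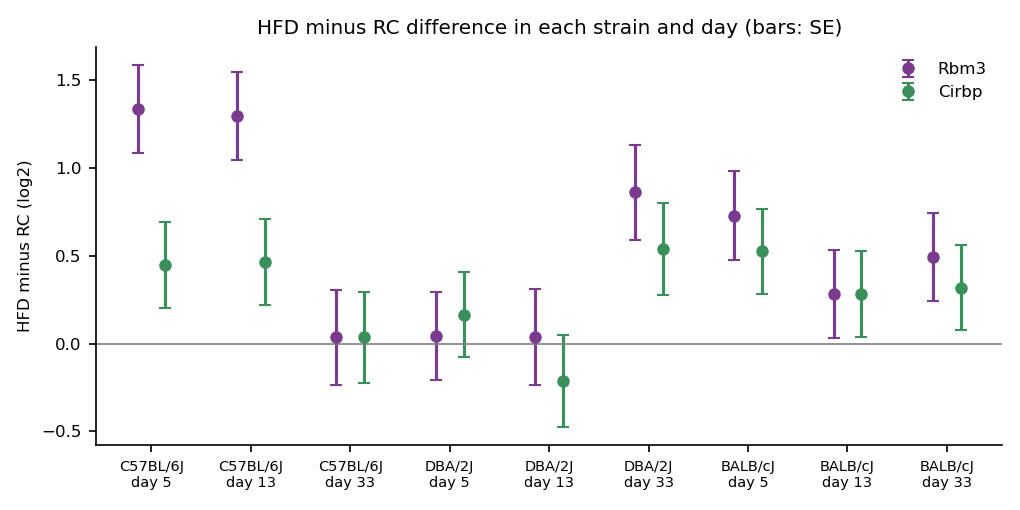
HFD minus RC difference of Rbm3 (purple) and Cirbp (green) on the log2 scale for each strain and day, with whiskers of 1 SE. Rbm3 ranges from 1.33 in C57BL/6J at day 5 to 0.036 in C57BL/6J at day 33, and Cirbp from 0.54 to -0.21.

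The sample titles carry a number whose meaning is not given in the labels. In BALB/cJ, the high HFD pairs, replicates 1 and 2 at both days, bore lower numbers than the low pairs, replicates 3 and 4. Within groups of BALB/cJ, that is after each group mean was subtracted, the number correlated with Rbm3 at Pearson's r = -0.70 (permutation p = 0.0009, adjusted 0.0018) and Spearman's rho = -0.74 (permutation p = 0.00128, adjusted 0.00307) over 24 libraries. For Cirbp r was -0.83 (permutation p = 0.00046, adjusted 0.0011) and rho -0.82 (permutation p = 0.00065, adjusted 0.00195). Without the 2 libraries farthest from the median number, r was -0.71 for Rbm3 and -0.81 for Cirbp. In C57BL/6J the relation ran the other way, with r = 0.49 for Rbm3 (permutation p = 0.024, adjusted 0.032; rho = 0.49, permutation p = 0.0303, adjusted 0.0405; r = 0.47 without the 2 farthest) over 23 libraries. Cirbp in C57BL/6J (r = 0.36, permutation p = 0.0978, adjusted 0.108; rho = 0.35, permutation p = 0.121, adjusted 0.132) did not pass. In the 22 DBA/2J libraries r was 0.38 for Rbm3 (permutation p = 0.0994, adjusted 0.108; rho = 0.38, permutation p = 0.113, adjusted 0.132) and 0.30 for Cirbp (permutation p = 0.178, adjusted 0.178; rho = 0.34, permutation p = 0.146, adjusted 0.146). The p-values are two-sided, came from 100000 shuffles and were adjusted over 12 relations.

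**Figure D3:**
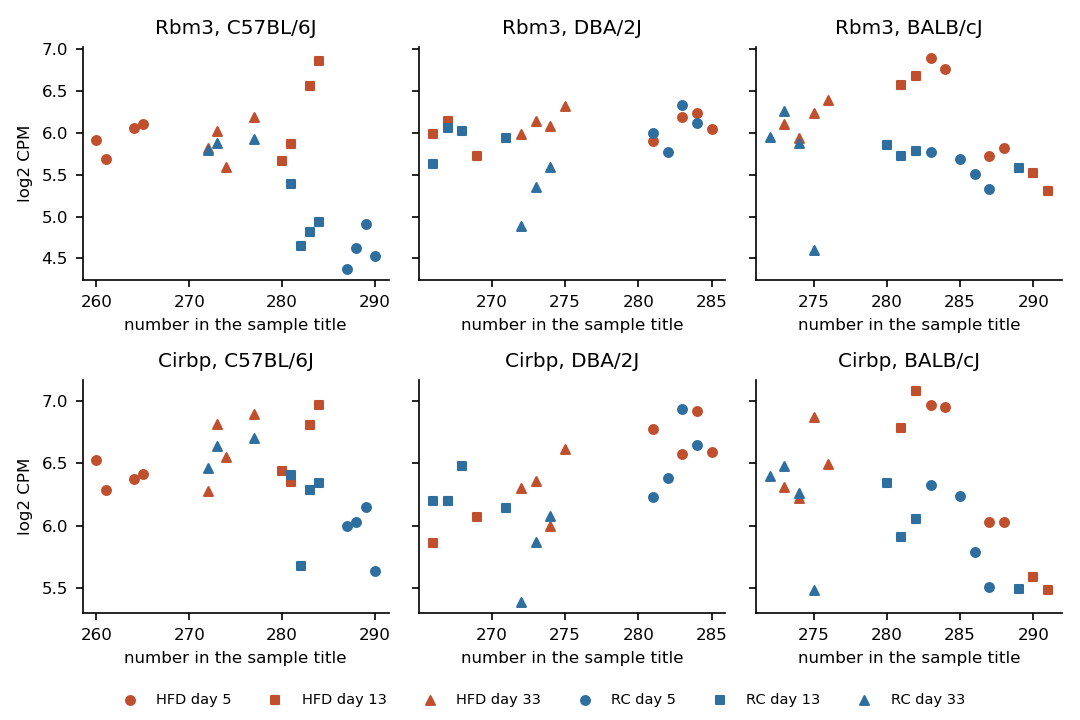
Level of Rbm3 (top) and Cirbp (bottom) in log2 CPM against the number in the sample title, for C57BL/6J, DBA/2J and BALB/cJ, with HFD in red and RC in blue and the day as the symbol. In BALB/cJ both genes fall with the number within days 5 and 13, and in C57BL/6J at day 5 the HFD numbers all lie below the RC numbers.

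Comparing libraries that bear the same number under both diets of a strain and day removes differences in number. There were 21 such pairs, and Rbm3 was higher in the HFD library of 18 of them, with a median difference of 0.39. It was higher in 6 of 6 C57BL/6J pairs (0.021 to 1.92), 6 of 8 DBA/2J pairs (-0.14 to 1.11) and 6 of 7 BALB/cJ pairs (-0.16 to 1.63). Cirbp was higher in the HFD library of 13 of 21 pairs, with a median of 0.27. Both counts come from libraries by which Rbm3 was chosen, so they describe and do not test. No share over all genes was computed for them. No C57BL/6J pair of day 5 could be formed. With the number as a linear covariate, the C57BL/6J difference was 0.50 for Rbm3 and -0.27 for Cirbp, and at day 5 of that strain diet and number cannot be told apart.

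Under RC, Rbm3 was lower in C57BL/6J than in both other strains. The choice of the genes compared diets and not strains, but it used these same RC libraries. The low C57BL/6J RC means of days 5 and 13 (4.61 and 4.95) enter the largest diet differences of Rbm3. The p-values here are thus not free of that choice. Averaged over days, Rbm3 was 5.75 log2 CPM in DBA/2J and 5.14 in C57BL/6J, a difference of 0.61 ± 0.15 (limma, adjusted p = 0.000684). It was 5.67 in BALB/cJ and 5.14 in C57BL/6J, a difference of 0.52 ± 0.15 (adjusted p = 0.0023). BALB/cJ and DBA/2J differed by -0.084 ± 0.149 (adjusted p = 0.709), with a 95% interval of -0.38 to 0.21. Strain calls were common among all genes, at 54.5%, 56.3% and 35.0% of genes in these 3 comparisons. The calls depended on which days entered. Without C57BL/6J day 5 the differences were 0.19 (adjusted p = 0.442) and 0.30 (adjusted p = 0.195), within ranges of adjusted p over the alternatives of 2.15e-07 to 0.451 and 5.48e-05 to 0.205. Both calls were also lost with the title number fitted as a covariate (0.40 and 0.30) and with macrophage and endothelial scores as covariates (0.53 and 0.47). The BALB/cJ call was lost as well without day 13 (0.39, adjusted p = 0.0502).

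Under HFD the strains did not separate. Rbm3 differed by 0.032 ± 0.149 between DBA/2J and C57BL/6J (adjusted p = 0.868, 95% interval -0.27 to 0.33), by 0.14 ± 0.15 between BALB/cJ and C57BL/6J (adjusted p = 0.441) and by 0.10 ± 0.15 between BALB/cJ and DBA/2J (adjusted p = 0.638). The shares of all genes called were 58.6%, 54.5% and 35.1%. Cirbp passed in none of the 6 strain comparisons as fitted here, but did in 3 of them under some alternatives. These were DBA/2J minus C57BL/6J under HFD with array weights (-0.30, adjusted p = 0.0167), without day 5 (-0.46, adjusted p = 0.0392) or without C57BL/6J day 5 (-0.46, adjusted p = 0.04), with a range of 0.0167 to 0.994. BALB/cJ minus C57BL/6J under RC passed with the title number as a covariate (-0.55, adjusted p = 0.00374, range to 0.76), and BALB/cJ minus DBA/2J under RC without day 33 (-0.44, adjusted p = 0.0484, range to 0.913). Its differences under RC were -0.049 between DBA/2J and C57BL/6J, -0.22 between BALB/cJ and C57BL/6J and -0.17 between BALB/cJ and DBA/2J (adjusted p = 0.797, 0.191 and 0.384). Under HFD they were -0.20, -0.16 and 0.042 in the same order (adjusted p = 0.227, 0.341 and 0.854), each with an SE of 0.14 to 0.15. The ratio of Cirbp to Rbm3 per kilobase of exon carried the same contrast, with a median of 2.63 in C57BL/6J HFD and 3.89 in C57BL/6J RC libraries, against medians of 2.08 to 2.56 in the 4 groups of the other strains.

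Under RC, the Rbm3 difference between days 33 and 5 was not the same in C57BL/6J and DBA/2J. In C57BL/6J under RC it was 5.87 at day 33 and 4.61 at day 5, a difference of 1.26 ± 0.27 (adjusted p = 0.0308, with 0.123% of genes called). In DBA/2J under RC it was 5.28 at day 33 and 6.05 at day 5, a difference of -0.78 ± 0.27 that did not pass (adjusted p = 0.256, with 0.00685% of genes called). It passed with array weights, with the title number fitted too and with the strain fitted alone (adjusted p = 0.0227, 0.0412 and 0.0356, range 0.0227 to 0.303). In neither strain did the 2 days overlap, as was so in these directions for 9.72% and 7.44% of all genes. The difference between these day effects, DBA/2J minus C57BL/6J, was -2.04 ± 0.38 (adjusted p = 0.0133, with 0.212% of genes called), a contrast added after the values were seen. Its p-value thus describes and does not test. The RC libraries compared here also enter the diet differences by which Rbm3 was chosen. In BALB/cJ under RC, Rbm3 differed by 0.097 ± 0.251 between days 33 and 5 (adjusted p = 0.985, with 0.00685% of genes called). The BALB/cJ day effect differed from those of C57BL/6J by -1.16 and DBA/2J by 0.87 (adjusted p = 0.724 and 0.395), and no gene was called in either (0% each). The C57BL/6J call was lost when C57BL/6J RC day 5 replicate 1, 2 or 4 was left out (1.18, 1.26 and 1.23, adjusted p = 0.0911, 0.102 and 0.0965) or C57BL/6J RC day 33 replicate 1, 2 or 4 (1.29, 1.25 and 1.23, adjusted p = 0.215, 0.0795 and 0.116). With the title number included as a covariate the C57BL/6J difference was 0.62 (adjusted p = 0.531, within 0.000387 to 0.531 over the alternatives). The difference between the strains' day effects lost its call without C57BL/6J RC day 33 replicate 4 (-2.01, adjusted p = 0.051), DBA/2J RC day 5 replicate 3 (-1.94, adjusted p = 0.0606) or DBA/2J RC day 33 replicate 1 (-1.84, adjusted p = 0.0722), and when the title number was fitted (-1.82, adjusted p = 0.0509).

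The Cirbp estimates had the same signs and did not pass. Under RC it was 6.60 at day 33 and 5.95 at day 5 in C57BL/6J (0.65 ± 0.26, adjusted p = 0.276), 5.78 and 6.55 in DBA/2J (-0.77 ± 0.26, adjusted p = 0.245) and 6.16 and 5.97 in BALB/cJ (0.19 ± 0.24, adjusted p = 0.963). Its day effect differed between DBA/2J and C57BL/6J by -1.42 ± 0.37 (adjusted p = 0.0555), between BALB/cJ and C57BL/6J by -0.46 (adjusted p = 0.842) and between BALB/cJ and DBA/2J by 0.96 (adjusted p = 0.322). Some of these passed under alternatives. The DBA/2J difference did with array weights, and when the title number was fitted too (adjusted p = 0.0206 and 0.0069, range 0.0069 to 0.292). The DBA/2J minus C57BL/6J day effect did with array weights, with macrophage and endothelial scores and without day 13 (adjusted p = 0.00217, 0.0491 and 0.0354, range 0.00217 to 0.143), and the BALB/cJ minus DBA/2J one with array weights (adjusted p = 0.0433, range to 0.414). Under HFD neither gene passed between days 33 and 5, except Cirbp in DBA/2J with the title number as a covariate (-1.04, adjusted p = 0.0164, range to 0.296). The Rbm3 differences there were -0.038 in C57BL/6J, 0.039 in DBA/2J and -0.14 in BALB/cJ, each ± 0.25, and those of Cirbp 0.24, -0.40 and -0.019, each ± 0.24. The smallest adjusted p of the 6 was 0.229, while 0.233%, 23.3% and 0.555% of all genes were called in those strains.

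Averaged over strains, the days did not separate either gene. Day 33 minus day 5 was 0.19 ± 0.15 for Rbm3 and 0.022 ± 0.147 for Cirbp under RC (adjusted p = 0.817 and 0.994, with 0.0822% of genes called). Under HFD it was -0.046 ± 0.145 and -0.060 ± 0.140 (adjusted p = 0.895 and 0.852, with 4.04% called). Day 13 minus day 5 was 0.12 and -0.028 under RC (adjusted p = 0.913 and 0.988, with 0% called) and -0.045 and -0.23 under HFD (adjusted p = 0.961 and 0.692, with 0.0205% called).

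Rbm3 and Cirbp varied together from mouse to mouse of the same group. After group means were subtracted, r was 0.73 in C57BL/6J (permutation p = 0.00446, adjusted 0.00765; rho = 0.77, permutation p = 0.00193, adjusted 0.00331), 0.67 in DBA/2J (permutation p = 0.00883, adjusted 0.0132; rho = 0.71, permutation p = 0.00347, adjusted 0.0052) and 0.92 in BALB/cJ. The BALB/cJ value had a permutation p of 1e-05, the smallest that the shuffles can give, and an adjusted p of 4e-05 (rho = 0.93, permutation p = 6e-05, adjusted 0.00024). Without the 2 libraries farthest from the median of Rbm3, r was 0.70, 0.57 and 0.91. Over libraries as they are, diet, day and mouse together, r was 0.86, 0.76 and 0.91. The 2 values of a library share its depth and RNA.

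The genes most and least like each member were ranked by Pearson's r over the 69 libraries after strain means were subtracted, among 10238 genes. Left out were genes that do not code for protein, predicted genes, genes with low levels and some that are not reported here. Cirbp stood next to the top of that order for Rbm3, at r = 0.82. Dmrtc1a, of the DMRT family, stood first (0.82), and the arylsulfatase gene Arsg (0.81), the glycolytic aldolase gene Aldoc (0.79), the palmitoyltransferase gene Zdhhc4 (0.77), the glucose-6-phosphate transporter gene Slc37a4 (0.75), the vesicle SNARE gene Vamp2 (0.74) and the GABA-synthesis gene Gad1 (0.74) followed. Lowest for Rbm3 were the collagen prolyl hydroxylase gene P4ha1 (-0.88), the ER lectin genes Lman2l (-0.88) and Mlec (-0.80), and Hnrnpc (-0.86), which encodes a nuclear RNA-binding protein.

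Highest for Cirbp were Haghl (0.85), Vsig10l (0.84), Dmrtc1a (0.84), the scaffold gene Mpp3 (0.82), Rbm3 (0.82), Vamp2 (0.81), the chondroitin polymerising factor gene Chpf2 (0.80) and the synaptotagmin gene Syt2 (0.80). Lowest for Cirbp was Hsp90aa1, the stress-inducible cytosolic HSP90, at r = -0.92, followed by P4ha1 (-0.89) and the HSP110 family genes Hspa4l (-0.88) and Hsph1 (-0.86). These are descriptions over libraries that differ in diet and day. With group means subtracted instead, the r of Hsp90aa1 and Cirbp was -0.91 and that of P4ha1 and Rbm3 was -0.86. The top 8 then shared 4 genes with those given here for Rbm3 and 5 for Cirbp, and with Spearman's rho 5 and 8.

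**Figure D4:**
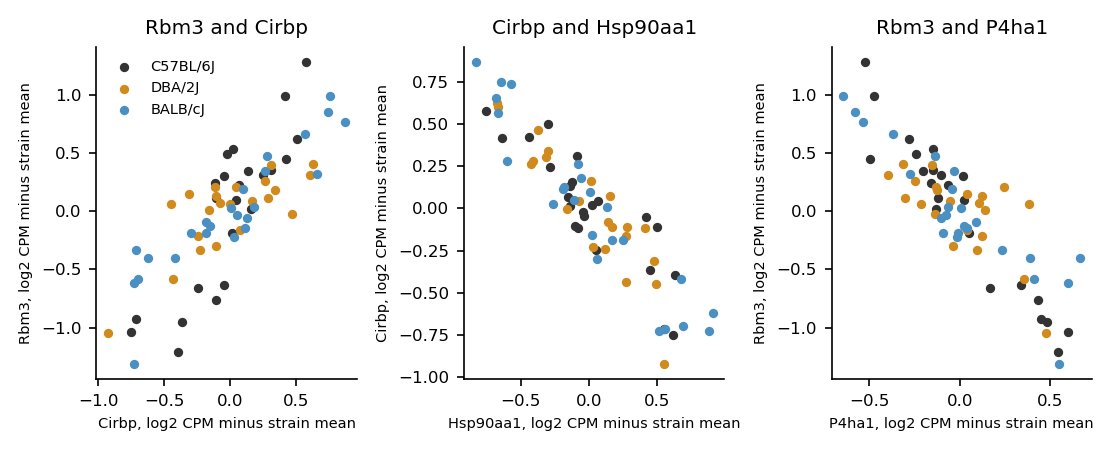
Levels in log2 CPM after strain means were subtracted, 1 point per library (69), coloured by strain: Rbm3 against Cirbp (left, r = 0.82), Cirbp against Hsp90aa1 (middle, r = -0.92) and Rbm3 against P4ha1 (right, r = -0.88). Points of the 3 strains overlap in each panel.

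Heat shock factor targets and chaperones are known to move against the cold-inducible genes with temperature. Across the 69 libraries, 24 of 24 of these genes had a negative r with Cirbp (median -0.71) and 23 of 24 with Rbm3 (median -0.53), beside a median of 0.008 over all genes for each. Only strain means were subtracted for these r values, so the diet difference stays in them. In HFD minus RC over all strains and days, 4 of 24 fell (limma, adjusted p under 0.05) and 0 rose, where 3.06% of all genes fell and 2.41% rose, and 23 of 24 estimates were below 0, with a median of -0.14 beside 0 over all genes. Those that fell were the small heat shock protein genes Hspb1 (-0.38, adjusted p = 0.0379), Cryab (-0.33, adjusted p = 0.0488) and Hspb8 (-0.17, adjusted p = 0.046) and the mitochondrial co-chaperonin gene Hspe1 (-0.20, adjusted p = 0.0395). The count was 0 under 6 of the alternatives, among them the title number and the stellate and fibroblast score as covariates, and 0 to 7 when single libraries were left out. In C57BL/6J, 4 of 24 fell and 1 rose, with 18 estimates below 0, where 14.6% of all genes were called. In DBA/2J and BALB/cJ 0 of 24 passed, with 19 and 24 estimates below 0, beside 0% and 0.151% of all genes.

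The inducible HSP70 genes Hspa1a (3.04 under HFD and 3.10 under RC, -0.063 ± 0.247) and Hspa1b (-0.018 ± 0.248) did not pass, with adjusted p = 0.916 and 0.977. Nor did Hspa8, the constitutive HSP70 (-0.16 ± 0.08, adjusted p = 0.212), or Hsp90aa1 (8.35 under HFD and 8.63 under RC, -0.28 ± 0.09, adjusted p = 0.0506). Hspa1a and Hspa1b are near-identical copies, so reads that match both may have been left out of the counts or split between them.

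The chaperones divided the BALB/cJ HFD libraries as Rbm3 and Cirbp did, in reverse. At day 13, the mean level over the 24 chaperone genes was 5.51 and 5.56 log2 CPM in HFD replicates 1 and 2, and 6.60 and 6.72 in HFD replicates 3 and 4. At day 5 it was 5.59 and 5.52 in HFD replicates 1 and 2, and 6.22 and 5.97 in HFD replicates 3 and 4. The 8 BALB/cJ RC libraries of those days lay between 5.77 and 6.50. Several marker means also differed between the pairs. Those of the stellate and fibroblast markers were 3.73 and 3.53 in HFD replicates 1 and 2 and 4.47 and 4.56 in replicates 3 and 4 at day 5, and 3.82 and 4.22 against 4.49 and 4.38 at day 13. The macrophage means at day 5 were 2.69 and 2.94 in replicates 1 and 2 and 3.20 and 3.10 in replicates 3 and 4. The acinar markers differed most at day 5, with a mean of 7.13 and 6.65 in HFD replicates 1 and 2 and 11.48 and 10.64 in replicates 3 and 4, and at day 13 with 6.22 and 7.25 in replicates 1 and 2 and 8.74 and 8.02 in replicates 3 and 4. The part of these markers in the split between the pairs was not tested.

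Clock genes changed most among the lists. In HFD minus RC, 10 of 19 rose and 3 fell, with a median of 0.21 beside 0 over all genes, and with 5.47% of all genes called. Among the output and repressor genes, Dbp rose by 0.93 (adjusted p = 1.3e-05), Per3 by 0.69 (adjusted p = 9e-05), Nr1d1 by 0.63 (adjusted p = 0.00239), Ciart by 0.61 (adjusted p = 0.00628), Hlf by 0.55 (adjusted p = 0.000362) and Tef by 0.54 (adjusted p = 2.97e-05). Nr1d2 (0.46, adjusted p = 0.00239), Per1 (0.28, adjusted p = 0.0164), Per2 (0.23, adjusted p = 0.0303) and Bhlhe41 (0.21, adjusted p = 0.00102) rose by less. The positive-limb genes Npas2 (-1.01, adjusted p = 0.000801) and Arntl (-0.75, adjusted p = 0.000117) fell, as did the repressor gene Nfil3 (-0.73, adjusted p = 0.00146). Clock (-0.11), Cry1 (-0.13), Cry2 (0.14), Rora (-0.003) and Bhlhe40 (0.12) did not pass, with adjusted p from 0.0766 to 0.978. Of the strains, C57BL/6J had 7 up and 4 down, BALB/cJ had 4 up and 0 down, and DBA/2J had 0 called, beside 14.6%, 0.151% and 0% of all genes. Without day 5 the counts over all strains were 3 up and 1 down. The labels do not give the time of day at which islets were taken, and its part in these values was not tested. With Rbm3 itself, after strain means were subtracted, r was highest for Per3 (0.63), Tef (0.61) and Dbp (0.59) and lowest for Arntl (-0.56). The diet difference by which Rbm3 was chosen stays in these r values, so genes that moved with the diet are favoured in them.

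CLK kinases phosphorylate SR splicing proteins and are known to respond to small changes of temperature. In HFD minus RC over all strains and days, 0 of 18 genes of this group passed at an adjusted p of 0.05, beside 5.47% of all genes. At an unadjusted p of 0.05, 2 of 18 passed, beside 3039 of all 14604 genes. Clk1 differed by -0.072 ± 0.071 (adjusted p = 0.612), Clk3 by -0.077 (adjusted p = 0.198), Srsf2 by 0.086 (adjusted p = 0.219), Srsf4 by 0.045 (adjusted p = 0.327) and Srsf5 by 0.13 (adjusted p = 0.35). In C57BL/6J alone, 6 of 18 rose and 0 fell, with 14.6% of all genes called. Srsf5 was 7.74 under HFD and 7.32 under RC there (0.42 ± 0.14, adjusted p = 0.0308), Srsf2 rose by 0.31 (adjusted p = 0.00236) and Srsf4 by 0.20 (adjusted p = 0.00253). Clk1 (0.19, adjusted p = 0.297) and Clk3 (0.024, adjusted p = 0.843) did not pass in that strain. In BALB/cJ and DBA/2J 0 of 18 passed, beside 0.151% and 0% of all genes. Most estimates there were below 0, 15 of 18 in BALB/cJ (median -0.056) and 16 of 18 in DBA/2J (median -0.080).

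Of 27 hnRNP and related RNA-binding protein genes, 2 rose and 1 fell, with a median of 0.017, where 5.47% of all genes were called. Hnrnpc, whose r with both cold-inducible genes was strongly negative, fell to 7.34 log2 CPM under HFD, against 7.54 under RC (-0.20 ± 0.04, adjusted p = 0.000435). Hnrnpa0 (0.13, adjusted p = 0.0277) and Ewsr1 (0.093, adjusted p = 0.0473) rose, and Hnrnpa2b1 (-0.090, adjusted p = 0.0504) did not pass. The count of 2 was 0 under 7 alternatives, and without day 5 the count of 1 was also 0. The cold shock domain genes code for a separate family of RNA-binding proteins. None of the 6 measured passed, beside 5.47% of all genes, and 0 did at an unadjusted p of 0.05, beside 3039 of 14604 genes. With 6 genes, these counts do not set the family apart from all genes. Ybx1 differed by 0.014, Ybx3 by -0.050, Carhsp1 by -0.024, Csdc2 by -0.043 and Lin28a by -0.098, with adjusted p from 0.421 to 0.801.

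Among 15 measured genes for partners, modifiers and reported targets of the 2 proteins, 0 rose and 1 fell, near the 5.47% of all genes called. Ntrk2, the BDNF receptor gene linked to Rbm3 induction in cooled mouse neurons, was 7.77 under HFD and 8.00 under RC (-0.23 ± 0.05, adjusted p = 0.00446), but was not called without day 5 or without C57BL/6J day 5. The genes of CIRBP's importer and modifying enzymes, Tnpo1 (-0.065), Prmt1 (0.067), Gsk3b (0), Csnk2a1 (-0.006), Csnk2a2 (-0.016) and Csnk2b (0.018), did not pass (adjusted p from 0.149 to 1). Nor did Sp1 (0.037), a factor reported at the Cirbp promoter in mouse cells, the receptor gene Tlr4 (-0.19, adjusted p = 0.0989), or Clock (-0.11, adjusted p = 0.0766). The other genes of the list, Txn1 (-0.016), Rpa2 (0.041), Rtn3 (-0.035), Dyrk1b (0.052) and Cdkn1b (-0.024), had adjusted p from 0.414 to 0.845. In C57BL/6J alone, 4 of 15 fell and 0 rose, where 8.05% of all genes fell and 6.5% rose. Those that fell (limma) were Ntrk2 (-0.46, adjusted p = 0.000436), Tlr4 (-0.43, adjusted p = 0.0119), Clock (-0.19, adjusted p = 0.0428) and Rtn3 (-0.11, adjusted p = 0.0493). In DBA/2J and BALB/cJ 0 of 15 passed, beside 0% and 0.151% of all genes.

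**Figure D5:**
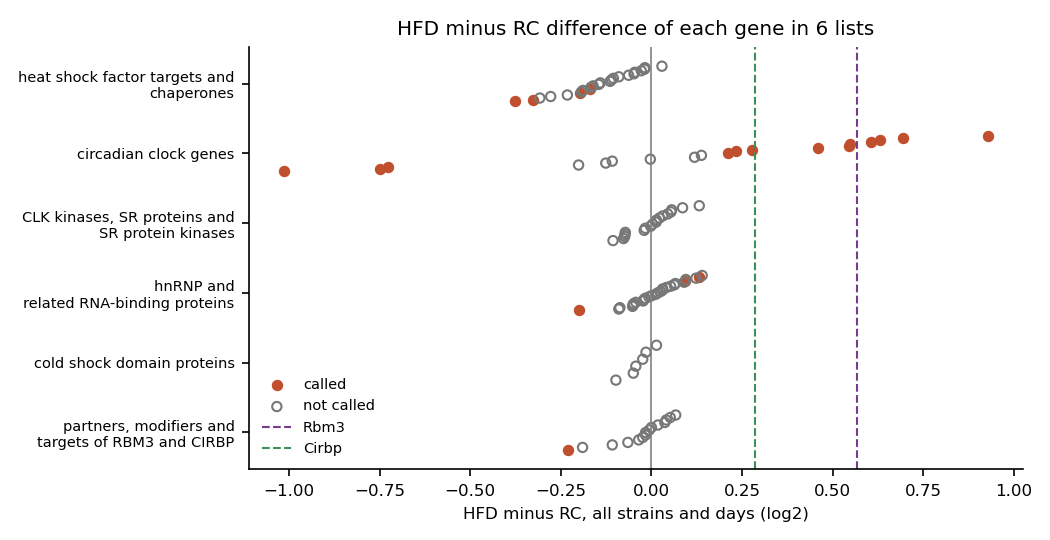
HFD minus RC difference over all strains and days, on the log2 scale, for each gene of 6 lists; filled points passed an adjusted p of 0.05 and open points did not, and dashed lines mark Cirbp (0.29) and Rbm3 (0.57). The clock genes spread from -1.01 to 0.93, the chaperones lie mostly below 0, and the other lists lie near 0.

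Cell type markers also moved with the diet, beside 5.47% of all genes called over all strains and 14.6% in C57BL/6J. Of 10 stellate and fibroblast markers, 5 fell and 10 of 10 estimates were below 0 (median -0.43), with summed levels of 160 to 645 CPM under HFD and 249 to 737 CPM under RC. In C57BL/6J 7 of 10 fell (median -0.80), with a median sum of 222 CPM under HFD and 309 CPM under RC. Of the others, 2 of 8 endothelial, 1 of 8 macrophage and 1 of 8 beta-cell markers fell, and 0 of 10 acinar, 6 alpha, 3 delta and 4 measured ductal markers passed. With the stellate and fibroblast score as a covariate the average difference between the diets was 0.52 for Rbm3 and 0.23 for Cirbp, and in C57BL/6J 0.81 for Rbm3 and 0.22 for Cirbp. The part of these cells in the diet differences was not tested further.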

How the data were processed

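RNA from the islets of single mice was sequenced as stranded messenger RNA libraries on an Illumina HiSeq with single-end reads of 125 bases, per the labels' protocols. Reads were aligned or counted with tools that the submitters' processing notes list without order as HTSeq 0.9.1, STAR 2.5.3a and edgeR, on GRCm38. The authors deposited log2 CPM values for 14604 genes, with a floor of -3.54. Each value was a whole number of reads (tolerance 0.05, checked up to 2000 reads), so depth could be recovered, at 12292621 to 34591079 reads per library. Of 72 samples, 69 had a column, and the other 3 were not analysed here. Intervals cover 95%.

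Contrasts were fitted with limma 3.58.1 (R 4.3.3) with a trend on the log2 values, 1 mean per group of strain, diet and day, over 69 libraries, with Benjamini-Hochberg adjustment over all genes and a threshold of 0.05. The step was tested on simulated data. Permutation tests used scipy 1.17.1. Gene models came from GENCODE mouse release 21, which 14589 IDs matched.

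The members and lists were chosen with earlier results of these data known. Named genes were all members of the clock, cold shock and partner lists except some that are not reported here, the 4 of each other list with the lowest p, Hspa1a, Hspa1b, Hsp90aa1, Hspa8 and Clk1, and the 8 most and 4 least alike genes. Clk1, Clk3, Srsf2, Srsf4 and Srsf5 in C57BL/6J are given as members named by that rule. Alternatives changed the filter, pseudocount, normalization, weights, test, covariates, block and samples. The series text repeats day 13 where the sample labels give day 33, and the sample labels were used.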

Additional observations from a re-analysis of the deposited data

Results flagged for a closer look

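The 15 groups of 4 libraries were examined for each gene, 30 sets of values in all, and in 2 of them 1 library stood apart from the others by Dixon's criterion, which chance alone meets in a small share of such sets. Cirbp in C57BL/6J RC day 13 had a lowest library of 5.68 log2 CPM, with the others at 6.29 to 6.41. Cirbp in DBA/2J RC day 13 had a highest library of 6.48 log2 CPM, with the others at 6.15 to 6.20.

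The estimated change between days 33 and 5 under RC was not the same in C57BL/6J and DBA/2J. For Rbm3 the DBA/2J change minus the C57BL/6J change was -2.04 (limma, adjusted p = 0.0133), a contrast added after the values were seen. The p-values of this contrast thus describe and do not test. The RC libraries compared also enter the diet differences by which Rbm3 was chosen. Each day 33 library stood above each day 5 library in C57BL/6J and below in DBA/2J, as for 9.72% and 7.44% of all genes. The Rbm3 call was lost without C57BL/6J RC day 33 replicate 4 (adjusted p = 0.051), DBA/2J RC day 5 replicate 3 (0.0606) or DBA/2J RC day 33 replicate 1 (0.0722). It was also lost with the title number fitted (0.0509). For Cirbp the same difference was -1.42 and missed the threshold (adjusted p = 0.0555), with the same separation of libraries in both strains. The Cirbp value passed when 1 of 7 libraries was left out: C57BL/6J RC day 5 replicate 3 (adjusted p = 0.0489), C57BL/6J HFD day 13 replicate 1 (0.0481), DBA/2J RC day 33 replicate 3 (0.0498), BALB/cJ HFD day 5 replicate 1 (0.0478), BALB/cJ HFD day 13 replicate 2 (0.0446) or 4 (0.0454), or BALB/cJ RC day 33 replicate 4 (0.0459). Those of other strains or days enter through the shared estimate of spread and the adjustment. The title numbers of the groups compared differ too, and their part was not tested apart from the covariate fits.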

How the results depend on the processing

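Over 17 alternatives, 848 values were recomputed: 751 kept their direction and side of the threshold (or, for counts, stayed within the allowed range), 11 lost a call, 15 gained one, 39 moved and 32 changed sign. The cause of these changes was not tested, except that settings leaving out samples have fewer of them.

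With the title number as a covariate, Rbm3 HFD minus RC in C57BL/6J was 0.50 and Cirbp -0.27, and over all strains Cirbp was 0.12. Under RC, Rbm3 DBA/2J and BALB/cJ minus C57BL/6J were 0.40 and 0.30, and Cirbp BALB/cJ minus C57BL/6J was -0.55. Under HFD, Cirbp DBA/2J and BALB/cJ minus C57BL/6J were 0.081 and 0.19. Day 33 minus 5 of Rbm3 was -0.33 under RC over strains, 0.62, -1.20 and -0.42 in C57BL/6J, DBA/2J and BALB/cJ, and under HFD 0.47 in C57BL/6J and -0.39 in DBA/2J. Day 13 minus 5 of Rbm3 was -0.21 under RC and 0.015 under HFD, and its DBA/2J minus C57BL/6J day effect -1.82. Day 33 minus 5 of Cirbp was -0.77 under RC over strains, -0.31, -1.40 and -0.59 by strain, and -1.04 in DBA/2J under HFD. The chaperones then had 0 lower and the hnRNP genes 0 higher.

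Without day 5, Rbm3 under RC was 0.19 and 0.30 for DBA/2J and BALB/cJ minus C57BL/6J and 0.11 for BALB/cJ minus DBA/2J, and -0.029 for DBA/2J minus C57BL/6J under HFD. Cirbp BALB/cJ minus DBA/2J was 0.036 under RC and DBA/2J minus C57BL/6J -0.46 under HFD. Chaperones lower numbered 0, clock genes 3 higher and 1 lower, hnRNP genes 0 and 0, partners lower 0. Without C57BL/6J day 5 the Rbm3 values were 0.19, 0.30 and, under HFD, -0.029, the Cirbp HFD value -0.46, and day 33 minus 5 under RC -0.34 for Rbm3 and -0.29 for Cirbp, with 0 chaperones lower, 0 hnRNP genes higher and 0 partners lower. Without day 13, Rbm3 BALB/cJ minus C57BL/6J under RC was 0.39, Cirbp BALB/cJ minus DBA/2J under HFD -0.033 and the Cirbp day effect -1.42 (now past the threshold), with 7 chaperones and 2 partners lower. Without day 33, HFD minus RC was 1.31 for Rbm3 in C57BL/6J and -0.024 for Cirbp in DBA/2J, Rbm3 DBA/2J minus C57BL/6J under HFD -0.068, and Cirbp 0.34 (DBA/2J minus C57BL/6J, RC), -0.44 and -0.015 (BALB/cJ minus DBA/2J, RC and HFD), with 0 chaperones lower and 0 hnRNP genes higher.

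With array weights, day 33 minus 5 in DBA/2J under RC was -0.74 for Rbm3 and -0.73 for Cirbp, Cirbp DBA/2J minus C57BL/6J under HFD -0.30, its day 13 minus 5 under RC 0.023, its day 33 minus 5 in BALB/cJ under HFD 0.031, and its day effects -1.32 and 1.04. Counts were 1 chaperone higher, 5 clock genes lower, 1 CLK or SR gene lower, 3 hnRNP genes lower, and 1 partner higher and 3 lower. With macrophage and endothelial scores, Rbm3 under RC was 0.53 and 0.47, under HFD -0.016, Cirbp day 33 minus 5 under RC -0.025 and its day effect -1.49, with 0 chaperones lower and 0 hnRNP genes higher and 2 lower. With the acinar score, Rbm3 day 33 minus 5 in BALB/cJ under RC was -0.077, Cirbp DBA/2J minus C57BL/6J under RC 0.14 and its day 33 minus 5 under RC -0.087, with 7 chaperones lower. With the stellate and fibroblast score 0 chaperones were lower and 0 hnRNP genes higher. Median centring gave 0.002 for Cirbp day 33 minus 5 in BALB/cJ under HFD and 1 hnRNP gene higher and 2 lower. Quantile normalization gave -0.013 for Rbm3 day 33 minus 5 in DBA/2J under HFD and 1 hnRNP gene higher. The low-value filter, log2 of CPM + 1 and voom each gave 2 hnRNP genes lower. With strains fitted alone, Rbm3 day 33 minus 5 in DBA/2J under RC was called (-0.78). With same-numbered libraries only, an alternative added after seeing the data, 1 chaperone was lower, 6 clock genes higher, 0 hnRNP genes higher and 0 partners lower.

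Leaving out single libraries gave these ranges. Rbm3: BALB/cJ minus DBA/2J under RC -0.15 to 0.036, DBA/2J minus C57BL/6J under HFD -0.032 to 0.10, day 33 minus 5 under HFD -0.11 to 0.021, day 13 minus 5 under HFD -0.12 to 0.035, day 33 minus 5 under RC 1.18 to 1.36 in C57BL/6J and -0.10 to 0.45 in BALB/cJ, under HFD -0.14 to 0.067, -0.025 to 0.088 and -0.33 to 0.062 in C57BL/6J, DBA/2J and BALB/cJ, and the day effect difference -2.20 to -1.84. Cirbp: DBA/2J minus C57BL/6J under RC -0.10 to 0.017, BALB/cJ minus DBA/2J under HFD -0.052 to 0.12, day 33 minus 5 under RC -0.029 to 0.096, day 13 minus 5 under RC -0.079 to 0.027, day 33 minus 5 in BALB/cJ under HFD -0.17 to 0.14, and the day effect difference -1.57 to -1.22. Counts ran from 0 to 7 chaperones lower, 1 to 4 hnRNP genes higher and 1 to 2 lower, and 1 to 2 partners lower.

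Title numbers did not pair the libraries: over 21 same-numbered pairs r ran from -0.29 to 0.35 (median 0.05, 9 over 0.1), and with the number as a replicate block (correlation -0.014) Rbm3 HFD minus RC was 0.57 and Cirbp 0.29, and no call changed.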

Other observations

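Among the other RNA-binding protein genes, several followed or opposed the cold-inducible pair across the 69 libraries after strain means were subtracted. Hnrnpc had r = -0.86 with Rbm3 and -0.86 with Cirbp. Hnrnpa1 had r = 0.67 with Rbm3 and 0.72 with Cirbp, Hnrnpdl 0.58 and 0.70, and Ewsr1 0.53 and 0.68. Of the SR genes, Srsf5 had r = 0.53 with Rbm3 and 0.59 with Cirbp, while Tra2a had -0.36 and -0.69. Clk1 (0.15 and 0.17) and Clk4 (0.11 and 0.11) lay near the median of their list. Hnrnpa1, Hnrnpdl, Tra2a and Clk4 were chosen after their values were seen, and these values are descriptions over libraries that share depth and RNA quality.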
